A study of Mus musculus with 29 samples.

Results

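Apoe, Apoc1, Apoc2 and Apoc4 are neighbouring genes that encode apolipoproteins, the protein shells of lipid particles. These 4 genes of the 27827 named in the deposited single-cell tables of mouse brain and blood were chosen by name, and their transcripts were followed over every annotated cell type, time and group. All 4 are listed in the brain tables, and 3 of the 4 in the blood tables, where Apoc4 has no row. The cells came from C57BL/6J mice that had sham surgery or a stroke, made by blocking the middle cerebral artery for a time. From young males (8 to 10 weeks) there were 4 brain libraries of day 2 after sham surgery, 4 of day 2 after stroke and 4 of day 14 after stroke. Mice of 17 to 20 months, called aged here, gave 2 brain libraries at day 2 after sham surgery (1 male, 1 female), 3 at day 2 after stroke (1 male, 2 female) and 1 at day 14 after stroke (female). Young males also gave 4 blood libraries at day 2 after sham surgery, 4 at day 2 after stroke and 3 at day 14 after stroke. Each brain library pooled 4 to 5 hemispheres, dissociated with papain in the presence of a transcription inhibitor and sorted for leukocytes with high CD45, microglia and endothelial cells. Each blood library pooled 2 mice. No sham library was made at day 14, so the comparisons of both stroke times with sham share the same day 2 sham libraries.

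Apolipoprotein E is the main lipid carrier made within the brain. Astrocytes supply most of it in the resting tissue, microglia add to it when they take up myelin and dying cells, and particles that carry it are cleared through receptors of the low-density lipoprotein family. Apolipoproteins C-I and C-II ride on the same particles in plasma, where C-II is the activating cofactor of lipoprotein lipase and C-I inhibits receptor uptake, while C-IV is a minor plasma protein. The genes lie in 1 cluster, and in macrophages they are known targets of the liver X receptors, nuclear receptors that sense oxidised cholesterol.

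In the GENCODE M21 annotation of GRCm38 the cluster is on the minus strand of chromosome 7, in the order Apoe, Apoc1, Apoc4, Apoc2 along the direction of transcription. Apoe (ENSMUSG00000002985.16) occupies 19696109 to 19699188 with 4 exons, and Apoc1 (ENSMUSG00000040564.14) 19689481 to 19692660 with 4 exons. Apoc4 (ENSMUSG00000074336.5) occupies 19678083 to 19681479 with 3 exons, and Apoc2 (ENSMUSG00000002992.17) 19671579 to 19677941 with 5 exons. The gaps are 3448 bases between Apoe and Apoc1, 8001 bases between Apoc1 and Apoc4 and 141 bases between Apoc4 and Apoc2, in a span of 27610 bases. A readthrough gene model, Gm44805, overlaps both Apoc4 and Apoc2, so the assignment of reads between these 2 genes is uncertain.

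The RefSeq promoter table (GRCm38.p6) matched 3 of the 4 genes. The 250 bases before the start of Apoe (chr7:19699189-19699438, minus strand) and of Apoc4 (chr7:19681461-19681710, minus strand) are shown because these genes moved together in microglia and their promoters share the longest word of any pair among the 3. The capitals mark that word, and the sequences run 5′ to 3′ on the coding strand.
Apoe: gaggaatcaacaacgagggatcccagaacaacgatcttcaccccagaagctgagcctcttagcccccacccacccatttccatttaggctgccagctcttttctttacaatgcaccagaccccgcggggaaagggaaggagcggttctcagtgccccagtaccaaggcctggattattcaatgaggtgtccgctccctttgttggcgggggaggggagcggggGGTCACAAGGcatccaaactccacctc
Apoc4: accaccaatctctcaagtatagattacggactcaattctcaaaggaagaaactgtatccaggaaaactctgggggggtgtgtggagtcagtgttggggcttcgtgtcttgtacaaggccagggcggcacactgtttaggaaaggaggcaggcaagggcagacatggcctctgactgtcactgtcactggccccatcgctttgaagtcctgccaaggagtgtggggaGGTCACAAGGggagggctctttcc
The word GGTCACAAGG was picked after these sequences had been compared. Its first base lies at -27 in Apoe and at -24 in Apoc4, counted back from the RefSeq start. On either strand it is held by 38 of the 32851 promoters of the same length, or 0.116%. The RefSeq start of Apoc4 lies within the GENCODE gene, 19 bases from its outer end. The nuclear receptor element AGGTCA, searched on both strands, was found at -25 in Apoc4, where it overlaps the shared word, and at -115 in Apoc2, but not in the Apoe window. It is held by 14% of all these promoters. The shorter word GGTCAC lies at the same place in both genes and is held by 12.6% of promoters, and GAGGAA, which the ETS family of factors can bind, is at -250 in Apoe only and is held by 23.3%. These matches describe letters only.

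Brain libraries held 1143 to 5121 cells and 819438 to 5855047 counts, and the median cell of a library held 321 to 1363 counts. Blood libraries held 2360 to 6328 cells and 966914 to 5232662 counts, and the median cell held 341 to 694. Any pair of brain libraries shared at most 3 cell barcodes, and any pair of blood libraries at most 7. The labels name pools and not single animals, so the spread between libraries is that between pools. Levels are in CPM, the counts of a gene scaled to a fixed total over all counts of 1 annotated cell type in 1 library, for types with at least 20 cells there. The authors' labels were checked against marker lists: each main brain type had its own list highest, except that cells annotated as dendritic, in brain and in blood, had the monocyte-derived list highest. In the young brain the median share of mitochondrial counts parted the libraries into those of 0.235% to 0.559% and those of 1.67% to 3.38%, with both kinds in every group.

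The microglia of 1 library, stroke day 2 replicate 3, stood apart. They were 58 cells in which the 7 microglial markers summed to 817 CPM, against 12679 to 14183 CPM in the other day 2 libraries, and the 6 monocyte-derived markers summed to 896 CPM, against 0 to 141 CPM. Deposited counts lie below whole numbers, and in these 58 cells the deposited total was 79.6% below the total of the counts rounded up, against 3.05% to 12.8% in the microglia of the other young libraries. Fold changes in microglia that involve day 2 are therefore given with and without this library. The aged library of day 14 also stands apart for these genes, as described with the aged mice.

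Border-associated macrophages, the resident macrophages of the meninges and perivascular spaces, held the highest level of Apoe in sham brain. Their sham values were 53520, 49983, 38351 and 22926 CPM, all above the other types of sham brain. Monocyte-derived cells followed with 5677, 6191, 3830 and 2893 CPM, then dendritic cells (806 to 7145 CPM) and B cells (705 to 2332 CPM), whose values overlapped with each other. Those of the dendritic cells also overlapped with the monocyte-derived cells, and those of the B cells lay below them. Microglia, the resident macrophages of the brain tissue, stood at 719 to 1331 CPM and endothelial cells at 532 to 1055 CPM, again overlapping. T cells (61.1 to 513 CPM), granulocytes (35.6 to 382 CPM) and mural cells (68.7 and 282 CPM) were lowest, with the 21 NK cells of 1 sham library at 102 CPM. These low values rest on few deposited Apoe counts. A library held 0.965 to 14.8 in T cells, 2.21 to 26.0 in granulocytes, 0.969 and 3.49 in mural cells and 0.866 in NK cells. The order among these types is therefore uncertain. The 23 cells annotated as epithelial in 1 sham library, with choroid plexus markers highest, were at 8622 CPM. At day 14 after stroke the order had changed. Microglia (35603 to 72349 CPM), monocyte-derived cells (38649 to 57176 CPM) and border-associated macrophages (40192 to 59365 CPM) overlapped at the top, and every other type stayed at or below 4654 CPM.

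**Figure D1:**
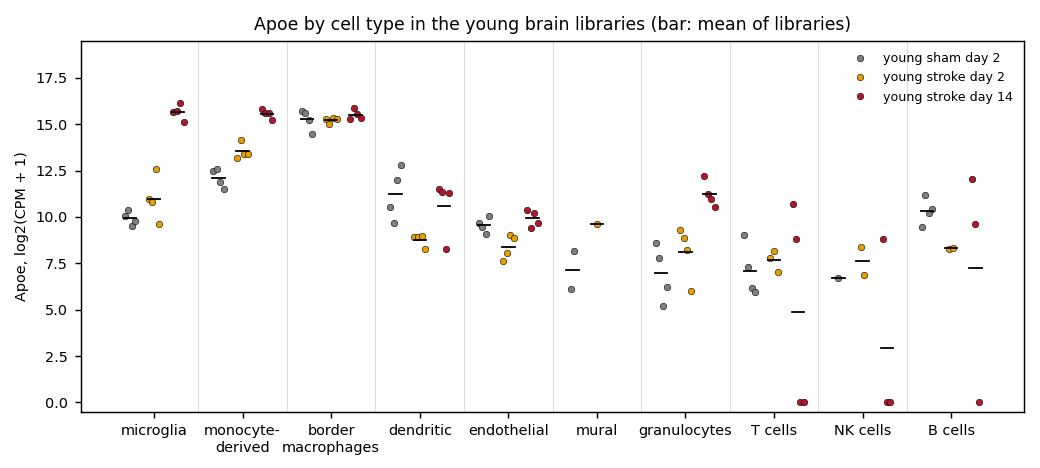
Apoe level as log2(CPM + 1) on the vertical axis against the annotated brain cell types of young mice; each point is 1 library, coloured by group, and each bar is the mean of the points. At day 14 microglia and monocyte-derived cells lie within or next to the range of border macrophages, and some lymphocyte libraries of day 14 sit at 0.

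In microglia, Apoe rose between sham and day 14 by more than any spread between libraries. Sham values were 1055, 1331, 719 and 869 CPM, day 2 values 1978, 1793, 6161 and 778 CPM, and day 14 values 52155, 53193, 72349 and 35603 CPM. Every day 14 library was far above every sham and day 2 library, while sham and day 2 overlapped, with the 6161 CPM coming from the library of 58 cells. The log2 fold change of day 14 against sham was 6.21 ± 0.62 (SE; edgeR adjusted p = 1.70e-05), in a comparison that called 15.2% of all genes. Against day 2 it was 4.85 ± 0.58 (adjusted p = 0.000537), where 6.93% of genes were called, and 5.44 ± 0.45 (adjusted p = 0.000240) without stroke day 2 replicate 3. Day 2 against sham gave 1.36 ± 0.50 (edgeR adjusted p = 0.0536, 31.4% of genes called) and 0.75 ± 0.35 (adjusted p = 0.126) without that library. The side of the threshold at day 2 depended on the fit: DESeq2 called it (1.20, adjusted p = 0.0246), as did edgeR without stroke day 2 replicate 4 (1.63, adjusted p = 0.0289), and with counts rounded up the difference was 0.54 (adjusted p = 0.586). The difference in mean log2 level between day 14 and sham was 5.64 in the libraries of low mitochondrial share (2 against 1) and 5.75 in those of high share (2 against 3). No test was made within these classes.

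Markers of other cells were found in the microglia at day 14, at lower sums than the microglial markers. The 6 border macrophage markers summed to 65.0 to 76.4 CPM, against 30.6 to 38.7 CPM in sham microglia and 5724 to 11902 CPM in border-associated macrophages of day 14. The 6 monocyte-derived markers summed to 102, 62.8, 6.94 and 5.06 CPM, against 26.7, 0.000208, 9.59 and 1.84 CPM in sham, and their part in the rise of Apoe was not tested. The 7 microglial markers summed to 13354 to 17063 CPM, against 17999 to 25092 CPM in sham. Granulocyte markers summed to 136 to 224 CPM, against 176 to 593 CPM in sham, and astrocyte markers to 47.9 to 107 CPM, against 204 to 216 CPM. Red cell markers reached 228 CPM in day 14 replicate 2 and 218 CPM in sham replicate 3. The part of these lists in the rise of Apoe was not tested either.

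The share of microglia with an Apoe count was higher in every day 14 library than in any sham or day 2 library. A cell counts as having one where its deposited value rounds to at least 1. With each cell thinned to 500 counts, Apoe was detected in 15.6% to 26.7% of microglia in sham libraries, in 20.2% to 35.2% in the 3 day 2 libraries with enough such cells, and in 93.9% to 98.5% at day 14. T cells, which should hold little Apoe of their own, were at 9.52% to 15.0% in the sham libraries with at least 20 T cells of that depth. All sham libraries together held 70 such T cells. At day 14 the T cells were at 0% to 55.3%. In day 14 replicates 3 and 4 every T cell with Apoe above 0 held less than 0.01 of a count, so their shares depend on how fractional counts are read. In replicates 1 and 2, 44 and 148 T cells held Apoe above 0, with 0 of them below 0.01, and the highest T cell share came from these libraries. How far such a background enters the microglial shares was not tested. The mean share was 22.4% ± 4.8 (SD, n = 4) in sham and 96.8% ± 2.1 (SD, n = 4) at day 14, and the groups did not overlap. A two-sided exact permutation test gave p = 0.0286, which 4 libraries against 4 cannot go below, and 0.0980 after adjustment over 12 tests. Without thinning the microglial shares were 14.5% to 27.9% in sham, 41.2% to 49.7% at day 2 and 88.4% to 99.1% at day 14, and those of T cells 2.33% to 7.55% in sham and 0% to 86.0% at day 14. These unthinned microglial shares passed the threshold in the same exact permutation test, with an adjusted p of 0.0490 for day 14 against sham, day 14 against day 2 and day 2 against sham. Each of these tests stood at the lowest p that 4 libraries against 4 allow. The adjusted p therefore reflects how many of the 12 tests reached that p, and not the size of a difference. At equal depth the difference of day 2 from sham did not pass. At 500 counts 3 libraries were compared with 4, so the exact permutation p could not go below 0.0571 and could not pass. The difference was 22.9 points without thinning, 6.40 points at 500 counts (exact permutation, adjusted p = 0.274) and 17.6 points at 300 counts (adjusted p = 0.196). The value at 300 counts includes stroke day 2 replicate 3, which had too few cells of 500 counts. Day 2 shares at 300 counts ran from 14.5% to 66.7%, with a median of 25.5%. In the median day 14 microglial cell of at least 500 counts, Apoe made up 4.27%, 4.27%, 6.30% and 2.74% of all counts in the 4 libraries, whereas the median was 0% in every sham library. A share above 1% was found in 79.3% to 94.0% of these cells at day 14 and in 0.913% to 2.37% in sham.

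**Figure D2:**
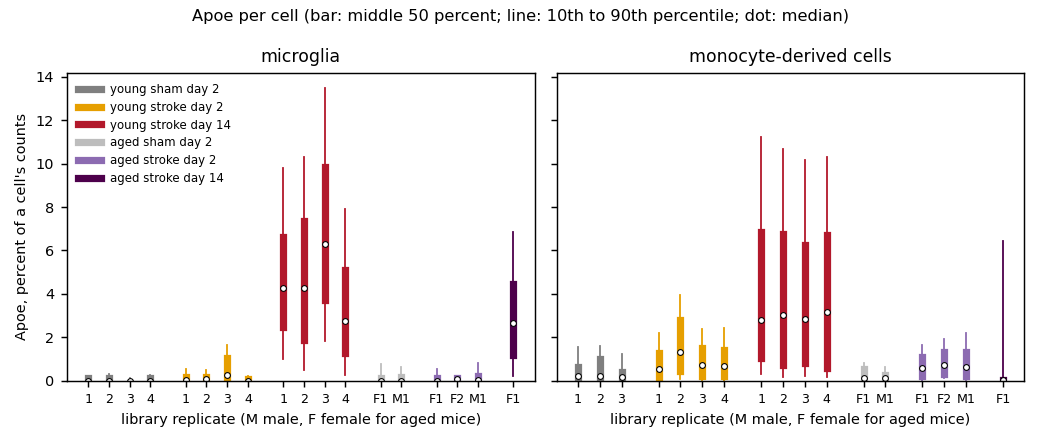
Percent of a cell's counts that are Apoe, in microglia and monocyte-derived cells of at least 500 counts; each column is 1 library, with the middle 50% of cells as a box, the 10th to 90th percentile as a line and the median as a dot. The young day 14 medians of microglia lie between 2.74% and 6.30%, and the young sham medians at 0%.

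Apoc1 and Apoc4 moved with Apoe in microglia, and Apoc2 stayed near the limit of detection. Apoc1 had sham values of 1.80, 7.62, 0 and 2.53 CPM, day 2 values of 7.44, 2.46, 6.89 and 2.94 CPM and day 14 values of 213, 322, 622 and 228 CPM. All day 14 libraries were above all others, and sham and day 2 overlapped. The log2 fold change was 7.08 ± 0.64 against sham (edgeR adjusted p = 8.60e-06) and 6.66 ± 0.70 against day 2 (adjusted p = 0.000200), and 0.42 ± 0.81 for day 2 against sham (adjusted p = 0.720). Without stroke day 2 replicate 3 it was 6.64 against day 2 (edgeR adjusted p = 0.000682) and 0.43 for day 2 against sham (adjusted p = 0.723). Without sham replicate 2, the highest sham library, the value against sham was 8.21.

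Apoc4 was at 0 in all 4 sham libraries, at 0, 0, 4.01 and 0.303 CPM at day 2 and at 40.7, 37.0, 154 and 37.8 CPM at day 14. Every day 14 library was above every other library, and replicate 3 was highest there as it was for Apoe and Apoc1. At these levels Apoc4 passed the filter on low counts, and so entered the test, only through its day 14 libraries. The day 14 libraries together held 423 counts against 0 in sham, which makes the level at least 126-fold higher, taking 3 counts over the group as the floor (edgeR adjusted p = 9.04e-05), and at least 72.6-fold higher without day 14 replicate 3. Against the single count of day 2 the ratio of pooled levels was 298, with a 95% counting interval of 53.2 to 11795 (adjusted p = 0.00129, and 0.00421 without stroke day 2 replicate 3); intervals and floors cover counting error only. That count was in replicate 4, without which day 2 held 0 counts and the level at day 14 was at least 37.5-fold higher. Without day 14 replicate 3 the ratio was 172. The 4.01 CPM of day 2 replicate 3 came from 0.106 of a deposited count. Thinned to 500 counts per cell, Apoc1 was detected in 8.93% ± 3.35 of day 14 microglia against 0.125% ± 0.113 in sham (SD, n = 4 each), and Apoc4 in 2.33%, 1.49%, 7.02% and 1.46% in the 4 libraries against 0%. The Apoc4 mean was 3.07% ± 2.66 (SD, n = 4), and 1.76% without day 14 replicate 3. Each difference had an exact permutation p of 0.0286, or 0.0980 after adjustment over the 12 tests. Thinned to 300 counts, the differences were 6.19 points for Apoc1 and 1.48 points for Apoc4, or 0.930 without day 14 replicate 3 (exact permutation with all libraries, adjusted p = 0.0571). Without thinning they were 16.9 and 6.98 points, the latter 3.75 without that library, and with all libraries the adjusted p was 0.0490, which passes the threshold. Apoc2, the lipoprotein lipase cofactor, had 16 counts at day 14, 1 at day 2 and 0 in sham, too few to be tested. Its day 14 values were 2.74, 4.19, 3.75 and 0 CPM.

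Day 14 microglia with an Apoc1 count held more Apoe than those without. Per 500 counts, their mean Apoe was 38.6 against 23.1 counts in replicate 1, 41.9 against 22.5 in replicate 2, 43.7 against 32.0 in replicate 3 and 27.3 against 15.4 in replicate 4. The direction was the same in 4 of 4 libraries, and cells of 1 library are not replicates, so no test was made.

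**Figure D3:**
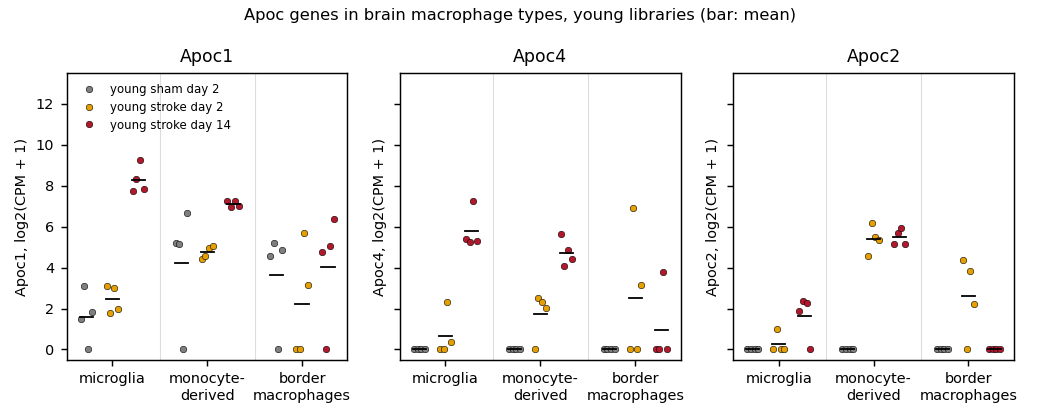
Apoc1, Apoc4 and Apoc2 levels as log2(CPM + 1) in microglia, monocyte-derived cells and border macrophages of young mice; each point is 1 library, coloured by group, and each bar is the mean of the points. Microglia at day 14 hold 213 to 622 CPM of Apoc1, and Apoc2 is highest in monocyte-derived cells after stroke.

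Higher levels of Apoe at day 14 were seen in several of the authors' microglial subtypes. The subtype Mg3 held 3415 of the 5170 day 14 microglia and had Apoe at 44212 to 77665 CPM over 4 libraries. Mg3 cells were present in sham brain too (70 cells in 2 libraries), at 5949 and 11276 CPM, with a pooled Apoc1 level of 231 CPM. Mg1, the most numerous subtype of sham brain, was at 704 to 1007 CPM in 4 sham libraries, at 785 to 1135 CPM at day 2 and at 5269 to 18992 CPM in the 3 day 14 libraries with enough cells, where no library overlapped with the earlier groups. Mg6 stood at 2037 and 3802 CPM in sham and at 32598 and 41054 CPM at day 14. Mg7 at day 14 reached 24425 to 70769 CPM. The pooled level of Apoc1 at day 14 was 593 CPM in Mg7 and 341 CPM in Mg3, against 23.9 CPM in Mg1, and that of Apoc4 was 92.3 CPM in Mg7 and 78.0 CPM in Mg3, with no count in Mg1. The clusters were made from the same counts, so these differences are a description with no test.

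**Figure D4:**
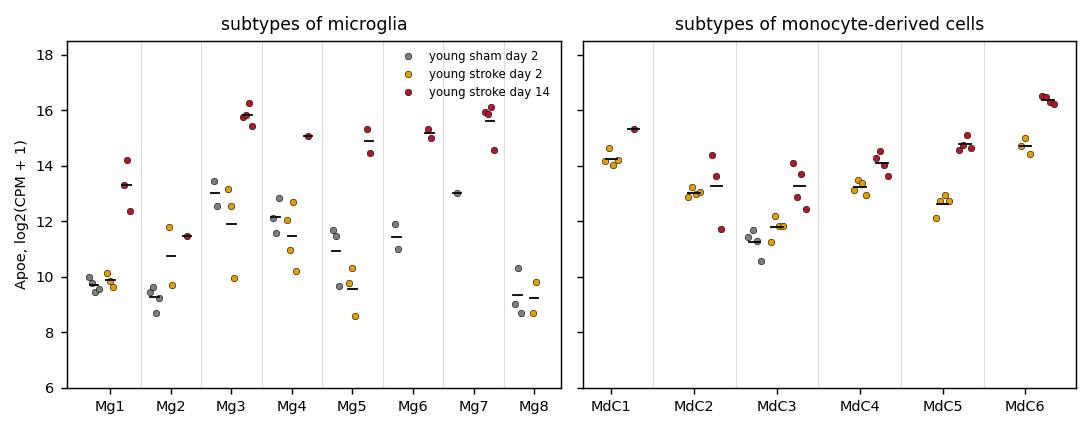
Apoe level as log2(CPM + 1) in the authors' subtypes of microglia and of monocyte-derived cells in young brain; each point is 1 library with at least 20 cells of that subtype, and each bar is the mean of the points. Mg3, Mg7 and MdC6 reach the highest values at day 14, and the Mg1 points of day 14 lie above those of sham. The vertical axis starts at 6.

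In monocyte-derived cells, the recruited macrophages and monocytes of the brain, Apoe rose in steps from sham to day 2 and day 14. Sham values were 5677, 6191, 3830 and 2893 CPM, day 2 values 9313, 18443, 10655 and 10895 CPM, and day 14 values 57176, 49354, 50179 and 38649 CPM. No group overlapped with another. The log2 fold change was 1.85 ± 0.38 for day 2 against sham (edgeR adjusted p = 0.00905, 6.71% of genes called), 3.80 ± 0.41 for day 14 against sham (adjusted p = 9.42e-05, 5.15% called) and 1.95 ± 0.38 for day 14 against day 2 (adjusted p = 0.0148, 1.79% called). In these cells the numbers of the day 2 and day 14 libraries went together, and with the number as a replicate block day 14 against day 2 called 469 genes in place of 145, with Apoe at 1.96 (adjusted p = 0.000353). The last call was lost without stroke day 2 replicate 3 (1.90, adjusted p = 0.0655), without stroke day 2 replicate 4 (1.96, adjusted p = 0.0522) or without stroke day 14 replicate 1 (1.86, adjusted p = 0.0532). Over all genes the median log2 change in these cells was 0.29 at day 2 and 0.28 at day 14 against sham, and the changes of Apoe stand beside that shift. The 7 microglial markers summed to 45.9 to 504 CPM in sham, 270 to 655 CPM at day 2 and 289 to 1863 CPM at day 14, and the 6 border macrophage markers to 68.2 to 480, 520 to 1085 and 837 to 1369 CPM. Their part in the rise of Apoe was not tested.

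The C apolipoproteins of monocyte-derived cells followed different courses. Apoc1 was at 35.5, 34.3, 0 and 100 CPM in sham, at 20.3, 22.5, 30.1 and 32.4 CPM at day 2 and at 152, 123, 151 and 127 CPM at day 14. The day 14 libraries lay above all others, and those of day 2 lay within the sham range. Day 14 gave a log2 fold change of 2.36 ± 0.49 against sham (edgeR adjusted p = 0.00996) and 2.34 ± 0.35 against day 2 (adjusted p = 0.00330), and day 2 against sham gave 0.02 ± 0.53 (adjusted p = 0.999), a value that turned to -0.44 when scaled by library size alone. The sham cells held only 8 Apoc1 counts, and without sham replicate 1 the call of day 14 against sham was lost (2.41, adjusted p = 0.0611).

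Apoc2 appeared in these cells as early as day 2. It was at 0 in all 4 sham libraries, at 23.0, 71.7, 44.2 and 40.4 CPM at day 2 and at 35.1, 51.3, 61.2 and 34.6 CPM at day 14. Both stroke groups were above sham in every library and overlapped with each other. Apoc2 entered the test, past the filter on low counts, only through the stroke libraries. With 383 and 186 counts against 0, the level was at least 3.18-fold higher at day 2 (edgeR adjusted p = 0.0118) and at least 3.51-fold higher at day 14 (adjusted p = 0.0125). Both calls were lost without sham replicate 1, where the level was at least 1.62-fold higher at day 2 (adjusted p = 0.0527) and at least 1.79-fold higher at day 14 (adjusted p = 0.0638). The log2 difference of day 14 from day 2 was 0.00 with a 95% interval of -0.86 to 0.86.

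Apoc4 was at 0 in the 4 sham libraries, at 0, 4.72, 3.99 and 3.11 CPM at day 2 and at 48.3, 15.7, 27.7 and 20.2 CPM at day 14. It passed the filter on low counts only through the day 14 libraries. The day 14 libraries were above all day 2 libraries, with a log2 fold change of 3.18 ± 0.72 (edgeR adjusted p = 0.0448). That call was lost without stroke day 2 replicate 3 (3.42, adjusted p = 0.133) or 4 (3.28, adjusted p = 0.162), and without stroke day 14 replicate 2 (3.32, adjusted p = 0.0588) or 4 (3.22, adjusted p = 0.114). Against sham, 138 counts against 0 gave at least a 2.60-fold higher level (at least 1.33-fold without sham replicate 1) that did not pass the test (edgeR adjusted p = 0.144).

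The subtype MdC6 held 985 of the 2898 monocyte-derived cells at day 14 and carried much of these transcripts. Its Apoe level was 75463 to 92918 CPM over 4 libraries at day 14 and 22029 to 32329 CPM over 3 at day 2. Pooled over day 14, MdC6 had 209 CPM of Apoc1 and 68.6 CPM of Apoc4, and 128.5 of the 138.5 deposited Apoc4 counts of the type. MdC3, the subtype that made up most sham monocyte-derived cells (243 of 318), had Apoe at 1521 to 3287 CPM in sham, 2428 to 4680 CPM at day 2 and 5590 to 17641 CPM at day 14. Its day 14 libraries were above both earlier groups. Apoc2 at day 2 was highest in MdC6 (133 CPM pooled, from 23 counts) and in MdC1 (62.0 CPM, from 176 counts).

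Border-associated macrophages were high in Apoe in every young group. Values were 53520, 49983, 38351 and 22926 CPM in sham, 40272, 32465, 41061 and 40024 CPM at day 2 and 40192, 59365, 48139 and 41607 CPM at day 14, with all groups overlapping. The log2 differences were -0.14 (95% interval -0.70 to 0.43) for day 2 against sham, 0.19 (-0.37 to 0.76) for day 14 against sham and 0.33 (-0.23 to 0.90) for day 14 against day 2. Their edgeR adjusted p values were 0.770, 0.965 and 0.583, and 2.67%, 0.0762% and 0.838% of genes were called. Between 90.3% and 100% of these cells had an Apoe count in every young library. Apoc1 ranged from 0 to 82.7 CPM in these libraries, with 10 counts in sham, 6 at day 2 and 7 at day 14, and it was not tested.

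Endothelial cells, which line the vessels, had a lower level of Apoe at day 2. Sham values were 819, 713, 532 and 1055 CPM, day 2 values 193, 266, 516 and 464 CPM and day 14 values 1336, 676, 1174 and 827 CPM. The day 2 libraries lay below all sham and all day 14 libraries. Apoe fell by 1.01 ± 0.32 on the log2 scale from sham to day 2 (edgeR adjusted p = 0.0466, 13.3% of genes called) and rose by 1.36 ± 0.32 from day 2 to day 14 (adjusted p = 0.0146, 11.2% called). Day 14 differed from sham by 0.35 with a 95% interval of -0.32 to 1.02 (adjusted p = 0.958, 0% called). The fall at day 2 was near the threshold: leaving out any single sham library, or stroke day 2 replicate 1, 2 or 4, ended the call, with adjusted p values of 0.0602 to 0.162. With counts rounded up it was -0.57 (edgeR adjusted p = 0.155), and day 14 against sham was 0.83 (adjusted p = 0.425). The deposited Apoe counts of these cells were 5.46% to 17.9% below the rounded-up ones in sham, 25.5% to 44.9% at day 2 and 28.7% to 43.7% at day 14, so the size of the fall depends on how fractional counts are read. In endothelial cells the 7 microglial markers summed to 1700 to 2523 CPM in sham, 3733 to 6830 CPM at day 2 and 2242 to 3002 CPM at day 14. Their part in the level of Apoe was not tested. The 6 endothelial markers, all detected, summed to 17742 to 28122, 13981 to 19389 and 19365 to 23974 CPM.

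Granulocytes of the brain had sham values of 382, 222, 35.6 and 74.0 CPM, day 2 values of 639, 468, 298 and 63.1 CPM and day 14 values of 4654, 2398, 1988 and 1471 CPM. The day 14 libraries were above all others. Apoe rose by 3.41 ± 0.64 on the log2 scale from sham to day 14 (edgeR adjusted p = 0.000670, 26.1% of genes called) and by 2.85 ± 0.66 from day 2 (adjusted p = 0.0146, 4.23% called). The latter was lost without stroke day 2 replicate 4 (2.42, adjusted p = 0.0515). Day 2 against sham gave 0.56 ± 0.69 (edgeR adjusted p = 0.696, 8.35% called), and 0.11 to 1.05 with 1 library left out at a time. Sham replicates 3 and 4 held only 2.21 and 3.81 deposited Apoe counts. Deposited counts were 4.95% to 63.2% below the rounded-up ones in sham, 25.6% to 72.3% at day 2 and 8.37% to 26.9% at day 14. The size of the rise thus depends in part on how fractional counts are read. In these cells the 5 granulocyte markers, all detected, summed to 221477 to 289421 CPM in sham and to 54027 to 70585 CPM at day 14. The 7 microglial markers, of which 3 to 7 were above 0 at day 14, summed to 129 to 398 CPM in sham and 369 to 782 CPM at day 14, and the 6 monocyte-derived markers to 687 to 2644 and 268 to 924 CPM. Over all cells of a library, Apoe was at 1290 to 5019 CPM in sham and at 27073 to 41967 CPM at day 14. Whether the marker shifts or RNA from other cells bear on the Apoe level of granulocytes was not tested.

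Cells annotated as dendritic had 1485, 806, 4022 and 7145 CPM of Apoe in sham, 474, 491, 507 and 311 CPM at day 2 and 2902, 2592, 306 and 2509 CPM at day 14. The day 2 libraries were below all sham libraries, but the difference of -2.87 ± 0.70 did not pass the test (edgeR adjusted p = 0.0660, 1.01% of genes called). Day 14 differed from sham by -0.59 (95% interval -1.99 to 0.81, edgeR adjusted p = 0.818, 1.53% called) and from day 2 by 2.28 (0.82 to 3.74, adjusted p = 0.142, 0.893% called), both with overlapping groups. The lower level at day 2 was called in 4 of 17 alternatives: by DESeq2 (-2.88, adjusted p = 0.00184), and by edgeR without a filter on low counts (-2.38, adjusted p = 0.00160), with only the compared groups fitted (-2.93, adjusted p = 0.0225) and with counts rounded up (-2.66, adjusted p = 0.0280). Day 14 against day 2 was called in 2 of 17, by DESeq2 (2.29, adjusted p = 0.0280) and by edgeR without the filter (2.18, adjusted p = 0.00628). The 6 border macrophage markers summed to 205 to 951 CPM in the sham cells, 57.8 to 105 CPM at day 2 and 36.7 to 120 CPM at day 14. Their part in the lower level at day 2 was not tested. The subtype DC4 held most of the Apoe: it was at 9542 to 22610 CPM in 3 day 14 libraries and at 36080 CPM in the 1 sham library with enough cells. No other dendritic subtype exceeded 2570 CPM in a library. In day 14 replicate 3, the low one, 249 of the 309 cells with an Apoe value above 0 held less than 0.01 of a count.

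Such small fractions were common for Apoe in brain lymphocytes. Of the T cells with an Apoe value above 0, 422 of 715 held less than 0.01 of a count, against 4 of 11660 microglia and 23 of 10872 monocyte-derived cells. The T cells of day 14 replicates 3 and 4 had 151 and 138 cells with Apoe above 0, all below 0.01, so their level was listed at about 0 CPM, while replicates 1 and 2 were at 1676 and 442 CPM. Rounded up to whole numbers, the same cells of replicate 3 would hold 151 counts. NK cells (139 of 221) and B cells (68 of 161) showed the same pattern. Lymphocyte levels of Apoe rest in part on how fractional counts are read. Of 7 tests of Apoe in lymphocytes of the young brain edgeR called 0, with 0 at an unadjusted p under 0.05, in comparisons that called 0% to 0.0954% of all genes.

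Aged mice were compared at day 2, where both ages had sham and stroke libraries. The young brain tables list 19704 genes, whereas 27514 genes are in those of the aged brain, so age and the making of the tables cannot be told apart. Young mice were all male, and each aged group of day 2 included 1 male library. In microglia, Apoe was at 3369 CPM (male) and 4013 CPM (female) in aged sham brain and at 2580 CPM (male), 2064 CPM and 1245 CPM (females) in aged stroke brain. Both aged sham libraries were above all 4 young sham libraries, and above all aged stroke libraries. Neither difference passed the test. Aged against young sham gave 1.94 ± 0.46 (edgeR adjusted p = 0.278, 0.018% of genes called). Aged stroke against aged sham gave -0.84 ± 0.50 (edgeR adjusted p = 0.437, 2.3% of genes called). With sex as a covariate they were 2.09 (edgeR adjusted p = 0.521) and -0.83 (adjusted p = 0.502). The former was called with edgeR when only the compared groups were fitted (2.01, adjusted p = 0.0309) or when genes of low counts were kept (1.98, adjusted p = 0.0244). The response to stroke differed between ages by -2.11 ± 0.64 on the log2 scale (interaction, adjusted p = 0.768, 0% of genes called), and by -1.65 without stroke day 2 replicate 3 of the young mice. The subtype Mg3 of the female aged sham library, 144 cells, was at 28835 CPM, against 5949 and 11276 CPM in young sham.

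In aged monocyte-derived cells, Apoe was at 2444 and 5891 CPM in sham and at 9957, 7435 and 9517 CPM after stroke, without overlap. The log2 difference of 1.76 ± 0.53 did not pass the test (edgeR adjusted p = 0.0889, 2.56% of genes called). With 1 library left out at a time, this difference ran from 1.36 to 2.81. Apoc2 was present in both aged sham libraries (35.0 and 55.1 CPM, from 3 counts in all), unlike young sham, and its aged against young difference in sham was not called (adjusted p = 0.688, 0% of genes called). Of the 31 tests of these genes in the day 2 comparisons with aged mice, edgeR called 0 at an adjusted p under 0.05, with 7 at an unadjusted p under 0.05. DESeq2 called 0 of the 8 that concern Apoe in microglia and monocyte-derived cells. These comparisons called few genes of any kind: 0.606% in endothelial cells and 3.14% in granulocytes for aged stroke against aged sham, 0.0286% in dendritic cells for aged against young stroke, and 0% in the others not given above.

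The aged library of day 14 had no replicate and entered no test. In its microglia Apoe was at 30983 CPM, near the lowest young value of 35603 CPM, and 89.3% of them had an Apoe count. Its Apoc1 level in microglia, 30.3 CPM, and its Apoc4 level, 5.80 CPM, were below all 4 young day 14 libraries. In its border-associated macrophages (83 cells) Apoe was at 1184 CPM, against 18884 CPM or more in every other library, and Apoc1 at 4610 CPM, against 82.7 CPM or less. There 14.5% of these cells had an Apoe value that rounds to at least 1 and 73.5% such an Apoc1 value, and 43 of the 83 cells held Apoe above 0. The 6 border macrophage markers summed to 4376 CPM in these cells, within the range of 2732 to 14093 CPM of the other libraries. Its monocyte-derived cells (87 cells) had 9484 CPM of Apoe, against 38649 CPM or more in young day 14 libraries, and 1220 CPM of Apoc1, against at most 152 CPM there. Apoe was listed at about 0 CPM in its endothelial cells, where all 79 cells above 0 held less than 0.01 of a count. With a single library, age, sex and the library itself cannot be told apart here.

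**Figure D5:**
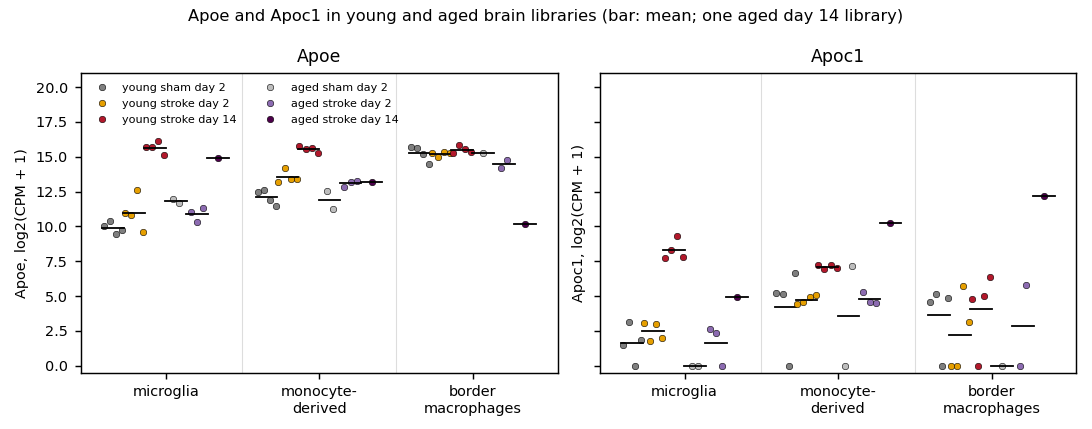
Apoe and Apoc1 levels as log2(CPM + 1) in microglia, monocyte-derived cells and border macrophages of young and aged mice; each point is 1 library, coloured by group, and each bar is the mean of the points. The single aged day 14 library has Apoe at 1184 CPM and Apoc1 at 4610 CPM in border macrophages.

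In blood, Apoe was mainly a transcript of monocytes. They had 3259, 2764, 1811 and 2221 CPM in sham, 3311, 4576, 1741 and 3546 CPM at day 2 and 3912, 2870 and 3820 CPM at day 14, with all groups overlapping. The log2 differences from sham were 0.41 (95% interval -0.10 to 0.91) at day 2 and 0.49 (-0.05 to 1.03) at day 14, with edgeR adjusted p values of 1.000 and 0.986 and 0% and 0.254% of genes called. The subtype Mo3 was highest, at 5642 to 7050 CPM in sham, 6973 to 8379 CPM at day 2 and 4963 to 8947 CPM at day 14, and Mo1 and Mo2 were at 541 to 1515 CPM in sham. B cells were at 192 to 377 CPM and neutrophils at 62.1 to 273 CPM over all groups, and T cells at 0 to 20.0 CPM. Monocytes held 0 to 43.0 CPM of Apoc1 and 0 to 25.7 CPM of Apoc2, and neither was called, nor was any change between day 2 and day 14 (0.537% of genes called). Apoe was not called in neutrophils (0%, 5.99% and 4.69% of genes called for day 2 against sham, day 14 against sham and day 14 against day 2) or in B cells (0%, 0.0114% and 0.0114%).

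The 1 call in blood among 16 tests was Apoe in dendritic cells. They had 48.8 and 120 CPM in the 2 sham libraries with enough cells and 763, 445 and 525 CPM at day 14, without overlap (log2 fold change 3.06 ± 0.59, edgeR adjusted p = 4.34e-05, 1.48% of genes called). The sham cells held 4 Apoe counts, and the call was lost without sham replicate 1 (2.58, adjusted p = 0.215) and by DESeq2 (3.05, adjusted p = 0.394). Their 6 monocyte-derived markers summed to 4437 and 4548 CPM in sham and 5724 to 7865 CPM at day 14, and their 6 dendritic markers to 964 and 1540 and to 1817 to 2508 CPM. The part of these markers in the difference was not tested. At day 14 the subtype DC2 was at 1318 and 1759 CPM and DC1 at 45.9 to 76.9 CPM.

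A list of 44 genes (other apolipoproteins, receptors, efflux and transfer proteins, lipases and storage proteins, cholesterol synthesis, and their regulators) was chosen with earlier results known; 38 are in the young brain table and 28 could be tested in microglia. In microglia 9 of 28 were higher and 0 lower at day 14 against sham, with a list median of 0.46 on the log2 scale against -0.04 over all genes, of which 10.6% were called higher and 4.66% lower. The storage and lipase group gave 6 of those 9, out of 7 tested. They include Lpl, the lipoprotein lipase that Apoc2 activates (6.41 ± 0.65), Plin2, a coat protein of lipid droplets (3.17 ± 0.36), and Npc2, which moves cholesterol out of lysosomes (1.93 ± 0.24). Ch25h, which makes 25-hydroxycholesterol, had 2 sham counts, and its pooled level was 352 times that of sham, with a counting interval of 97.1 to 2912. Both counts were in sham replicate 2, without which the level was at least 160-fold higher. No gene of cholesterol synthesis (5 tested) and none of the efflux and transfer group (4 tested) was called in that comparison.

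At day 2, 6 of the 28 were higher and 3 lower in microglia, and without stroke day 2 replicate 3 these counts were also 6 and 3 of 28. Over all genes 15.7% were called higher and 15.7% lower at day 2. Lpl (5.15 ± 0.62), Plin2 (4.08 ± 0.38) and Cd36, a scavenger receptor (5.26 ± 0.57), were higher. Mylip, which marks lipoprotein receptors for degradation (-1.26 ± 0.26), Sorl1, a sorting receptor (-1.24 ± 0.39), and Scap, the cholesterol-sensing escort of the factor SREBP (-1.15 ± 0.29), were lower. From day 2 to day 14, 4 of the 28 were higher and 1 lower: Npc2 (1.36 ± 0.24), the cholesterol exporter Abcg1 (1.39 ± 0.28), the lipid-sensing receptor Trem2 (1.33 ± 0.35) and Mylip (1.19 ± 0.26) rose and Cd36 fell (-2.19 ± 0.45), where 3.47% of all genes were called higher and 3.46% lower. Without stroke day 2 replicate 3 the day 2 values were 5.41 for Lpl, 3.79 for Plin2, 5.29 for Cd36, -1.14 for Mylip, -1.20 for Sorl1 and -1.11 for Scap, and those from day 2 to day 14 were 1.43 for Npc2, 1.33 for Abcg1, 1.07 for Trem2, 1.07 for Mylip and -2.23 for Cd36. All these values, with and without that library, are edgeR log2 fold changes ± SE with adjusted p under 0.05, and the list is described by counts only. Ch25h, with 2 sham counts, was already higher at day 2, by 7.71 ± 0.64 without stroke day 2 replicate 3 (edgeR adjusted p = 3.2e-05). From day 2 to day 14 its difference in that fit was 0.83 ± 0.39 (adjusted p = 0.251).

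In monocyte-derived cells 9 of 27 were higher and 1 lower at day 14 against sham, with a list median of 0.87 against 0.28 over all genes, of which 4.21% were called higher and 0.941% lower. Efflux and transfer genes gave 3 of 4 tested: the cholesterol exporters Abca1 (3.82 ± 0.79) and Abcg1 (2.45 ± 0.32), and Pltp, the phospholipid transfer protein (2.35 ± 0.38). Trem2 (2.57 ± 0.47) and Mylip (2.55 ± 0.51) were higher too, and Cd36 was lower (-2.10 ± 0.53). At day 2 against sham 6 of 27 were higher and 1 lower, against 5.66% and 1.05% of all genes. Nr1h3, which encodes a liver X receptor, went from 0 to 528 counts, at least 4.39-fold higher (edgeR adjusted p = 0.00218) and at least 2.24-fold higher without sham replicate 1, and Abca7, a lipid transporter, was lower (-2.09 ± 0.53). From day 2 to day 14, Mylip (1.88 ± 0.33) and Abcg1 (1.29 ± 0.23) rose and Plin2 fell (-1.12 ± 0.23), where 0.829% of all genes were called higher and 0.965% lower.

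The genes whose levels went most closely with those of the 4 apolipoprotein genes were found over 28 points (each an annotated type in 1 young brain group, libraries pooled, with at least 50 cells) and 8175 genes, by Pearson's r of log2(CPM + 1). Points of 1 group share their libraries and differ in depth, and r is given as a description. For Apoe they were Igf1 (0.87), the lysosomal genes Hexa (0.84) and Lamp1 (0.83), and the macrophage genes Ms4a7 (0.83) and Folr2 (0.83). For Apoc1 they were Fam20c (0.83), Sat1 (0.82), Creg1 (0.82), Gdf15 (0.81) and Ctsb (0.81). For Apoc4 they were Gpnmb (0.79), Igf1 (0.74), Atp6v0d2 (0.73), Cxcl13 (0.68) and Gdf15 (0.67), and for Apoc2 Cxcl14 (0.77), Pdpn (0.75), Cfb (0.75), Nxpe5 (0.74) and Arg1 (0.70). Among the 4 genes themselves r ran from 0.56 for Apoe and Apoc2 to 0.81 for Apoc1 and Apoc4.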

How the data were processed

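Cells were profiled by Drop-seq, a droplet method that tags each cell's transcripts, per the labels' protocols. The authors deposited, for each of 29 libraries, expected counts per gene and cell that are not whole numbers and are not scaled, and a table with each cell's type and subtype. Seurat and the build mm10 are named in the submitters' processing notes, and the aligner, the cell filter and the step that made the counts fractional are not given in the sources used here.

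Counts were summed per library and annotated type (at least 20 cells), rounded, and tested with edgeR 4.0.16 (quasi-likelihood, TMM, filterByExpr; R 4.3.3, limma 3.58.1), 1 fit per type over the groups compared, with Benjamini-Hochberg adjustment over all genes tested and calls at 0.05. DESeq2 1.42.0 was an alternative. Shares of cells with a count came from cells thinned to 500 counts (seed 7), with exact two-sided permutation tests over libraries. Python 3.11.15, numpy 2.4.6, scipy 1.17.1, pandas 2.3.3 and scanpy 1.11.5 were used. A group at 0 was given a floor of 3 counts over the group. All deposited cells were kept in the main fits: the doublet caller Scrublet marked at most 0.2251% of a library's cells, and its calls were not used. An alternative left out the 5% of cells with the highest Scrublet scores.

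Named genes are the 4 members in every comparison, called list genes of at least 20 CPM (up to 4 in each direction), and the 5 genes most like each member. Other list genes (Pltp in monocyte-derived cells at day 14) are named to account for a count, after their values were seen. The members and lists were chosen with earlier results of these data known. On simulated data with 200 genes changed 3-fold, the day 14 comparison recovered 74.5% in microglia (10145 genes) and 20.6% of the changed genes in monocyte-derived cells (8080 genes). Of the calls, 5.1% in microglia and 8.89% in monocyte-derived cells were of unchanged genes. The median log2 change of raised and lowered genes was 1.58 and -1.63 in microglia. In monocyte-derived cells it was 1.88 and -1.32, so changes against sham ran high there. Same-numbered libraries were compared by the correlation of their deviations from the group means: every pair was over 0.1 only for monocyte-derived cells (0.268 to 0.758) and endothelial cells (0.139 to 0.478) at day 2 and day 14.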

Additional observations from a re-analysis of the deposited data

Results flagged for a closer look

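Of 43 groups of 4 libraries checked, 5 had 1 library far from the others, where chance flags about 1 in 20 groups. For Apoc4 in microglia these were day 14 replicate 3 (154 CPM) and day 2 replicate 3 (4.01 CPM), the latter in the library of 58 microglia. For Apoe in border-associated macrophages it was day 2 replicate 2 (32465 CPM), below the other 3. For Apoe in dendritic cells these were day 14 replicate 3 (306 CPM) and day 2 replicate 4 (311 CPM), both below the others of their group.

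The aged library of day 14, which entered no comparison, held signal above the sham libraries or away from the young day 14 libraries. Its Apoe level was 30983 CPM in microglia and 9484 CPM in monocyte-derived cells. Its Apoc1 level was 30.3 CPM in microglia, 1220 CPM in monocyte-derived cells and 4610 CPM in border-associated macrophages, and its Apoc4 level in microglia was 5.80 CPM.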

How the results depend on the processing

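Over 42 fold changes and 695 alternatives, 622 kept their direction and their side of the threshold, 27 were no longer called, 14 were newly called and 32 had the other sign, of which 0 concerned a called result. Values below are log2 fold changes by edgeR unless DESeq2 is named, and for changes of call or sign the cause was not tested. In microglia, Apoe at day 2 against sham was newly called by DESeq2 (1.20), with only the compared groups fitted (1.32), with the mitochondrial share class as a term (1.40) and without the cells of highest doublet scores (1.60); these last 2 alternatives were chosen after seeing the data. Aged against young sham was newly called without a filter on low counts (1.98) and with only the compared groups fitted (2.01), as was aged stroke against aged sham in monocyte-derived cells without the filter (1.87). In monocyte-derived cells, day 14 against day 2 was no longer called for Apoe without the filter (1.81) and for Apoc4 with only the compared groups (3.17) or at least 50 cells per library (3.11).

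The other sign was taken only by differences that were not called. In monocyte-derived cells Apoc1 at day 2 against sham took it when scaled by library size alone (-0.44), by DESeq2 (-0.15), with the replicate block (-0.07) and with the compared groups only (-0.08), and Apoc4 by DESeq2 (-0.07). Apoc2 at day 14 against day 2 went to 0.04, 0.07, 0.10 and 0.01 with library size alone, DESeq2, the replicate block and the mitochondrial class. In border-associated macrophages day 14 against sham was -0.14 without the filter. In microglia aged against young stroke was 0.52 with counts rounded up, 0.24 in cells of at least 800 counts and 0.03 without the second aged stroke female. The interaction of age and stroke in monocyte-derived cells was 0.04 without the cells of highest doublet scores.

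With 1 library left out at a time, values ranged as follows. In microglia at day 2 against sham, Apoe ran from 0.75 to 1.66 and Apoc1 from -0.05 to 1.55, and Apoe in aged against young stroke from -0.55 to 0.30. In monocyte-derived cells at day 2 against sham, Apoc1 ran from -0.19 to 0.48, and at day 14 against sham from 2.08 to 2.74. The fitted values of Apoc2 against sham, where sham held 0 counts, are set by the prior count and are no measure of size: edgeR gave 8.37 to 8.81 at day 2 and 8.48 to 8.82 at day 14, and DESeq2 3.82 and 3.89. At day 14 against day 2, Apoe ran from 1.85 to 2.18, Apoc2 from -0.20 to 0.27 and Apoc4 from 2.74 to 3.42. For Apoe with age in these cells, the interaction ran from -0.62 to 0.83 (-0.32 without young sham replicate 2) and aged against young sham from -1.25 to 0.20. In border-associated macrophages Apoe ran from -0.39 to 0.09 at day 2 and from -0.05 to 0.38 at day 14 against sham, and in dendritic cells from -0.85 to 0.19 at day 14 against sham. The fall of Apoe in endothelial cells at day 2 lost its call in 11 of 17 alternatives, and the lower level in dendritic cells at day 2 gained one in 4 of 17.

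The replicate block changed no call of the 4 genes and left Apoe in microglia at day 2 at 1.13. It raised the genes called in monocyte-derived cells at day 14 against day 2 from 145 to 469; DESeq2 gave 386 and the mitochondrial class 348. Library size alone moved the genes called from 1544 to 3425 (microglia, day 14 against sham), from 703 to 1157 (microglia, day 14 against day 2; 426 with the compared groups only) and from 542 to 355 (monocyte-derived cells, day 2 against sham). It shifted the median of all genes by -0.453 to -0.172 in microglia and by -0.425 to 0.03 in monocyte-derived cells. List genes called lower in microglia went with it from 0 to 1 at day 14 against sham and from 1 to 2 at day 14 against day 2, where DESeq2 called 8 higher in place of 4. In monocyte-derived cells at day 2, library size alone gave 3 higher and 2 lower in place of 6 and 1, and DESeq2 3 lower. At day 14 against sham the lower count of 1 became 3 and 4 with these, and at day 14 against day 2 the higher count of 2 became 1 without the filter. In other cell types of the day 2 comparisons with aged mice, tests called went from 0 to 2 without the filter and to 1 with sex as a covariate.

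Depth limits the sham values: monocyte-derived cells of the 4 sham libraries held 230541 counts in all. Where sham was at 0, the report gives lower bounds. Shares of cells with an Apoe count differed between day 14 and sham microglia by 74.4 points at 500 counts per cell, 77.7 at 300 and 73.1 without thinning. The planned removal of the doublets that Scrublet marked was not run.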
